A study of Mus musculus with 14 samples.

Results

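A group of 10 genes that handle heme and iron were followed in the livers of tumor-bearing mice and in cultured mouse pancreatic stellate cells (PSCs). They were Hpx, Hp, Hamp, Cp, Trf, Tfrc, Hmox1, Slc40a1, Fth1 and Ftl1, matched by symbol to the gene names of each data set. All 10 were among the 54532 genes listed for liver, and 9 were among the 16481 genes listed for PSCs, where Hamp was not listed. The genes were chosen by name from a reading of earlier results of these same data, so their differences are given as a description and are not independent evidence for a pattern.

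RNA-Seq was performed on 8 livers, of which 2 were from WT mice, which in this study carry Piezo1 fl/fl without Cre, 3 were from mice with a global Trpv4-/- deletion (TRPV4-KO), and 3 were from WT mice that received the TRPV4 antagonist GSK2193874 (GSK219) at 10 mg/kg by gavage every 24 hours in 6% cavitron. All mice were 8 to 12 weeks old and of both sexes, and their livers were collected 20 days after 100000 KPCY cells, a mouse pancreatic tumor line that keeps its own functional TRPV4, had been placed in the pancreas. The sources used here do not say whether the WT mice of the liver RNA-Seq were gavaged with the carrier. Mouse PSCs from 3 preparations were each given DMSO or 25 µM of the PIEZO1 agonist Yoda1, for 24 hours by the methods and 72 hours by a supplementary legend.

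Iron travels in plasma on transferrin, enters cells through the transferrin receptor, is kept in ferritin shells and leaves cells through ferroportin, the product of Slc40a1. Hepcidin, the liver hormone made from Hamp, closes that exit by removing ferroportin from the membrane. Hemoglobin and heme set free from red cells are caught in plasma by haptoglobin and hemopexin, which are acute-phase proteins of hepatocytes, and heme oxygenase 1 (Hmox1) opens the heme ring and releases its iron.

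Of the 10 genes, 4 carry an iron-responsive element, the hairpin that iron regulatory proteins bind. The pattern searched was a C, 5 bases, the loop CAGTGN and 5 bases that pair with the first 5, G-T pairs included, on the transcript strand of GENCODE M21 transcripts, and it was found in 1.34% of 21877 protein-coding genes. The matches, of 30 bases each on GRCm38, are shown because ferritin and ferroportin carry theirs in the 5′ UTR and the transferrin receptor carries its own in the 3′ UTR, where iron regulatory proteins act on translation and on mRNA stability, respectively. Capitals mark the loop.
Fth1, 5′ UTR, chr19:9982732-9982761, plus strand: ttcctgcttcaaCAGTGCttgaacggaacc
Ftl1, 5′ UTR, chr7:45459778-45459807, minus strand: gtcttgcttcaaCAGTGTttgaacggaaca
Slc40a1, 5′ UTR, chr1:45925464-45925493, minus strand: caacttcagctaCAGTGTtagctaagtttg
Tfrc, 3′ UTR, first of 4 matches, chr16:32631219-32631248, plus strand: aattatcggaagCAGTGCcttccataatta
Tfrc, 3′ UTR, last of 4 matches, chr16:32631710-32631739, plus strand: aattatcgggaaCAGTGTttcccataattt
The Fth1 and Ftl1 elements share the same 5-base arms around the loop, and the Tfrc elements differ from them in the arms. A match is a description of the letters and was not tested as a working site.

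A second regulatory sequence is shown for Hamp, because bone morphogenetic proteins (BMPs) and interleukin 6 are the textbook inducers of hepcidin through SMAD and STAT3 sites. In the RefSeq promoter (GRCm38.p6, chr7:30944100-30944159, minus strand), the 60 bases from 130 to 71 before the start hold a GGCGCC, the core of a BMP element, and a TTCNNNGAA, the STAT letters, both in capitals.
Hamp promoter: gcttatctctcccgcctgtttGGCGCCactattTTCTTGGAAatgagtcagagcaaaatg
The 2 motifs do not overlap and begin 109 and 97 bases before the start. Searched on both strands in the 250 bases before each start, TTCNNNGAA was in 7.02% and GGCGCC in 9.59% of 32851 promoters. A promoter was given in that table for 6 of the 10 genes. Of these, Hamp alone held TTCNNNGAA, and Hamp and Tfrc held GGCGCC.

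The livers had between 15567031 and 17395299 counts on genes, and the PSC libraries between 27312894 and 39070539 recovered reads. Liver levels are given as CPM, a gene's counts relative to the TMM-scaled total of the library, and PSC levels as the deposited values, which are reads scaled by a size factor for each library. Trpv4, the deleted gene, had 43 and 53 counts in the WT livers, 15, 5 and 23 in the TRPV4-KO livers and 20, 30 and 36 in the GSK219 livers. The TRPV4-KO livers were below WT, with a log2 fold change of -1.71 ± 0.496 (SE; edgeR, adjusted p = 0.161), and overlapped with the GSK219 livers, which keep the gene. Where in the gene the reads of the TRPV4-KO livers lay was not analysed here. The 6 hepatocyte markers, led by Alb, summed to 51306 to 60178 CPM in WT, 73046 to 93187 CPM in TRPV4-KO and 70129 to 80458 CPM in GSK219 livers. Alb alone averaged 38006, 66647 and 58099 CPM in these groups. In TRPV4-KO against WT 5 of the 6 had positive log2 fold changes and 1 a negative one, with a median of 0.21. Apoa1 averaged 6318 CPM in WT and 5367 CPM in TRPV4-KO livers. None of the 6 was called in any liver comparison. Xist reads were found in 1 liver of each group, WT replicate 1 and replicate 3 of both other groups, and the 5 other livers had Y-linked reads. In PSCs, 6 of 8 stellate cell and fibroblast markers were listed, with Gfap and Lrat absent from the list, and the 6 summed to 810157 to 906064 in DMSO and 401590 to 511552 in Yoda1 libraries. All 7 macrophage markers were listed in PSCs, at 2895 to 3149 in DMSO and 2493 to 3828 in Yoda1 libraries in sum, and no erythroid marker was.

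Levels were divided by the gene length listed with the liver counts, which need not be that of the expressed transcripts. Per kilobase of that length, averaged over the 8 livers, the level of Hpx was the highest (6037 CPM per kilobase). That of Hp followed (3946 CPM per kilobase), and the ranges of both overlapped. Fth1 (1229), Hamp (1060.4) and Ftl1 (930.2 CPM per kilobase) came next, with overlapping ranges that lay below all livers of Hp. Trf (151 CPM per kilobase) and Cp (146 CPM per kilobase) could not be ordered beyond their spread, nor could Slc40a1 (24.2) and Hmox1 (19.7 CPM per kilobase). Tfrc, with 4.53 CPM per kilobase, was below every other member in each liver. The order in PSCs was another one. There Fth1 (35805) and Ftl1 (26666 per kilobase) were followed by Hmox1 (7757) and Tfrc (855 per kilobase), while the plasma proteins Hp (15.0), Hpx (7.72) and Trf (2.92 per kilobase) stood at the low end. Fth1 exceeded Ftl1 per kilobase in all 14 libraries, by 1.11 to 1.57 times. This order rests on the listed lengths, 866 bases for Fth1 and 1340 for Ftl1. Before that division Ftl1 had more counts than Fth1 in every library except Yoda1 replicate 2.

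Livers without TRPV4 were compared with WT livers to ask what loss of the channel in the host does to the liver of a tumor-bearing mouse. The plasma heme scavenger Hpx was the only one of the 10 genes that passed the test, and it fell in TRPV4-KO livers. Hp was at about the same distance from WT without passing. Hpx, the gene of hemopexin (chr7:105591613-105600137, minus strand, GRCm38), had 16603 and 13407 CPM in WT livers and 7195, 6262 and 6983 CPM in TRPV4-KO livers. The WT livers lay above all TRPV4-KO livers, and the mean was 2.2 times as high in WT. This was a log2 fold change of -1.14 ± 0.156 (SE; edgeR quasi-likelihood test, Benjamini-Hochberg adjusted p = 0.0358). Across all 15118 genes tested, 0.291% were called in either direction and 0.165% were called lower, and 1 of 10 members was called. Groups of 2 and 3 livers can lie apart by chance, and the share of all genes that did so was not counted. The call was lost when WT replicate 1 (adjusted p = 0.277), WT replicate 2 (0.0727), TRPV4-KO replicate 1 (0.161) or TRPV4-KO replicate 2 (0.177) was left out, where the log2 fold change stayed between -1.30 and -0.99. It was also lost when the fit held only the 2 groups compared (0.124), and Hpx was called in the 8 other alternatives of 13.

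Haptoglobin, encoded by Hp (chr8:109575128-109579172, minus strand), had 12056 and 8180 CPM in WT livers and 5368, 4841 and 4703 CPM in TRPV4-KO livers. The groups did not overlap, and WT replicate 1 was the highest liver for both scavengers. For Hp the log2 fold change was -1.03 ± 0.200 (SE; adjusted p = 0.0921), with a 95% interval of -1.48 to -0.57. Over 13 alternatives its adjusted p ran from 0.000515 to 0.522. Hp was called in 5 of these, by DESeq2 (0.000515), with no filter (0.00978), with the liver number as a replicate block (0.0357), with sex reads as a term (0.0379) and without TRPV4-KO replicate 3 (0.0414). The liver number marks no known pairing of the livers. Among livers with Xist reads the log2 ratio of TRPV4-KO over WT was -1.36 for Hp and -1.25 for Hpx, and among livers with Y-linked reads it was -0.68 for Hp and -0.99 for Hpx.

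**Figure D1:**
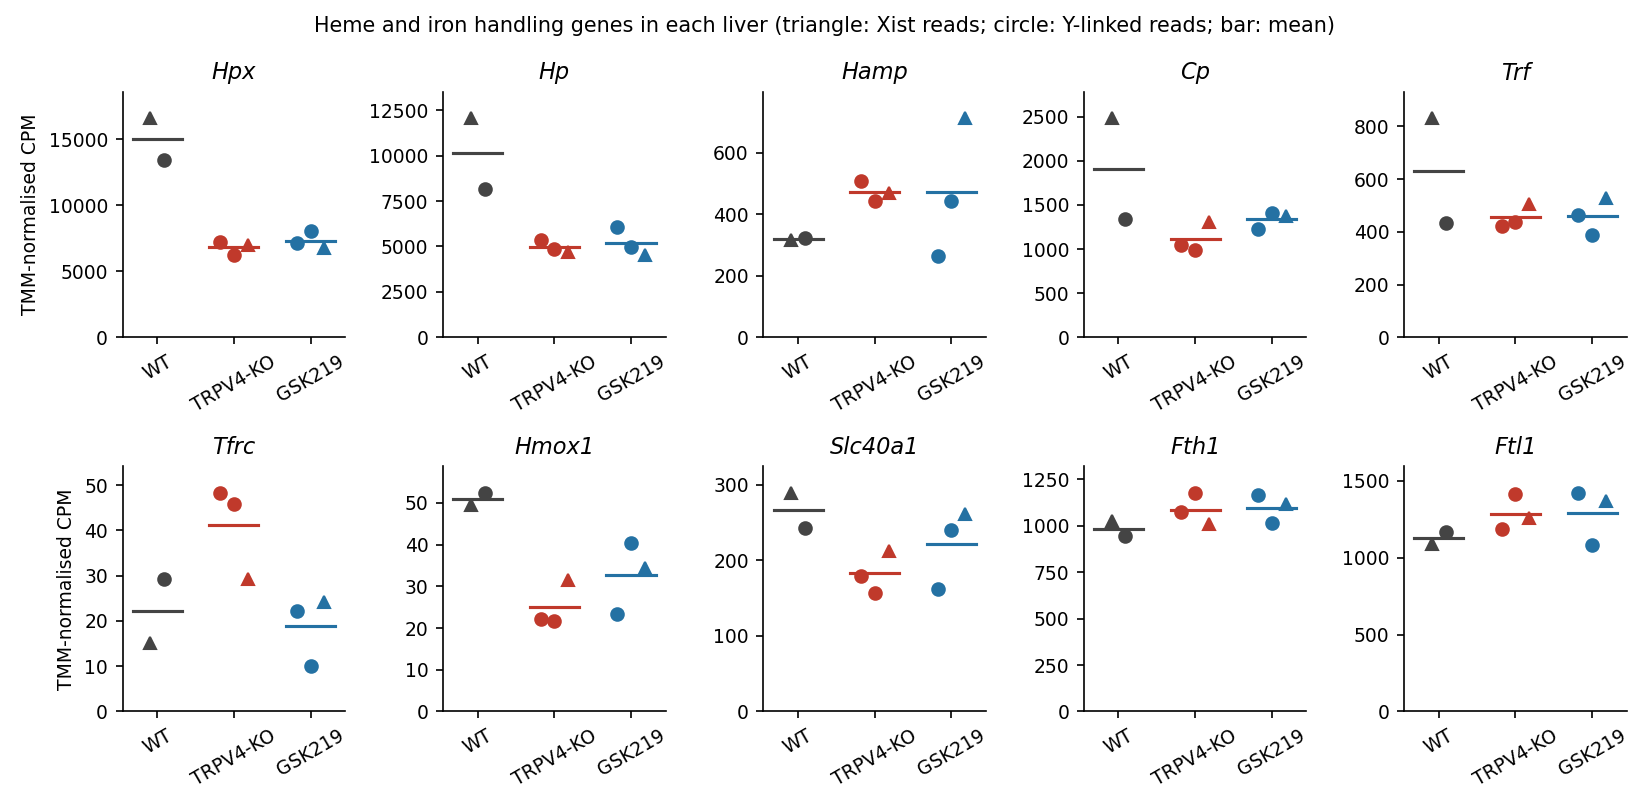
TMM-normalised CPM (y axis, from 0) of each gene in each of the 8 livers, by group, with a bar at the group mean. Triangles are livers with Xist reads and circles are livers with Y-linked reads. Both WT livers lie above the 6 other livers for Hpx, Hp and Hmox1, while for Tfrc the TRPV4-KO livers reach the highest values.

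Hmox1 is transcribed in macrophages that clear red cells as well as in other liver cells. It lies at chr8:75093621-75100589 on the plus strand and had 49.4 and 52.5 CPM in WT livers and 22.1, 21.6 and 31.5 CPM in TRPV4-KO livers. All TRPV4-KO livers were below both WT livers, and replicate 3, with Xist reads, was the nearest to them. Its log2 fold change was -1.02 ± 0.242 (SE; adjusted p = 0.119), and over 13 alternatives the adjusted p ran from 0.00724 to 0.504. Hmox1 was called in 4 of these, by DESeq2 (0.00724), without TRPV4-KO replicate 3 (0.0305), with the liver number, which marks no known pairing, as a replicate block (0.0444) and with no filter (0.0453). The 7 Kupffer cell markers, from Clec4f to C1qa, summed to 1240.3 to 1413 CPM in WT, 331 to 747 CPM in TRPV4-KO and 364 to 860.4 CPM in GSK219 livers, and all 7 were detected in each group. In bulk liver, fewer cells of a type and less RNA per cell cannot be told apart, and the part of Kupffer cells in the Hmox1 values was not tested. The 8 stellate cell and fibroblast markers summed to 134 to 196 CPM in WT, 63.4 to 117 CPM in TRPV4-KO and 66.2 to 103 CPM in GSK219 livers, and the 3 endothelial markers to 211 to 227, 118 to 196 and 143 to 199.6 CPM. None of these 11 markers was called in any of the 3 liver comparisons, and their part was not tested either. Cd163, the macrophage receptor for haptoglobin bound to hemoglobin, had 101 and 91.7 CPM in WT and 30.4 to 59.5 CPM in TRPV4-KO livers, with a log2 fold change of -1.04 ± 0.338 (SE; adjusted p = 0.197).

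Ferroportin, encoded by Slc40a1, is the iron exporter that hepcidin removes. Its transcript had 289 and 242 CPM in WT livers and 179, 157 and 213 CPM in TRPV4-KO livers, where the groups did not overlap, with a log2 fold change of -0.54 ± 0.216 (SE; adjusted p = 0.255). Hepcidin (chr7:30942368-30944032, minus strand) had 316 and 324 CPM of Hamp in WT livers and 507, 442 and 469 CPM in TRPV4-KO livers. All TRPV4-KO livers were above the WT livers by 1.48 times in the mean. The fitted difference was 0.56 ± 0.340 (SE, log2; adjusted p = 0.444) with a 95% interval of -0.22 to 1.35, so Hamp was not called.

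The neighboring copy Hamp2 (chr7:30922372-30924681, minus strand) had another pattern. It had 60 and 3 counts in the WT livers, 16, 4 and 1172 in the TRPV4-KO livers and 9, 12 and 209 in the GSK219 livers. In each group its highest count was that of the liver with Xist reads, and the other 5 livers had at most 16 counts. Reads that Hamp and Hamp2 share by sequence may be split between them by the counting, which the sources used here do not describe. Hamp was nearly even across this split in WT and TRPV4-KO livers, with 316 CPM in the WT liver with Xist reads against 324 CPM in the other, and 469 CPM in the TRPV4-KO liver with Xist reads against 507 and 442 CPM. In GSK219 livers the one with Xist reads had 712 CPM of Hamp against 266 and 442 CPM, and the log2 ratio of GSK219 over WT was 1.17 among livers with Xist reads and 0.13 among livers with Y-linked reads.

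Of the plasma iron proteins, ceruloplasmin (Cp), the ferroxidase that oxidises exported iron, had 2482 and 1342 CPM in WT and 1050.3, 989 and 1307 CPM in TRPV4-KO livers. Transferrin (Trf) had 831 and 432 CPM in WT and 421, 438 and 506 CPM in TRPV4-KO livers. Both WT values of Cp were above the TRPV4-KO livers, while those of Trf overlapped with them. In each gene WT replicate 1 was well above WT replicate 2. Cp had a log2 fold change of -0.78 ± 0.246 (SE; adjusted p = 0.184), which ran from -1.17 without WT replicate 2 to -0.28 without WT replicate 1. That of Trf was -0.47 ± 0.258 (SE; adjusted p = 0.396) and became 0.06 without WT replicate 1.

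The transferrin receptor Tfrc, which brings iron into cells, had 15.1 and 29.3 CPM in WT livers and 48.4, 45.7 and 29.2 CPM in TRPV4-KO livers. WT replicate 2 and TRPV4-KO replicate 3 had nearly the same level, and the other livers of the groups were apart. The log2 fold change was 0.89 ± 0.436 (SE; adjusted p = 0.351), and ran from 0.48 without WT replicate 1 to 1.44 without WT replicate 2. The ferritin genes were the most even members. Fth1, the heavy chain, had 943 to 1023 CPM in WT and 1009.8 to 1178 CPM in TRPV4-KO livers (log2 fold change 0.15, 95% interval -0.15 to 0.44). Ftl1, the light chain, had 1085 to 1163 CPM in WT and 1185 to 1412 CPM in TRPV4-KO livers (log2 fold change 0.19, 95% interval -0.17 to 0.55). Neither was called in any of the liver fits run. Ftl1-ps1, a pseudogene of the light chain that can take its reads, had 435 and 487 counts in WT and 457 to 575 in TRPV4-KO livers, against 17544 to 21789 counts of Ftl1.

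GSK219-treated and WT livers were compared to ask what the antagonist does in mice that have TRPV4, and both comparisons used the same 2 WT livers. No gene of 15118 was called (0%), so 0 of 10 members were, against 1242 genes with an unadjusted p under 0.05 in edgeR and 108 genes called by DESeq2. Hpx had 7156, 8047 and 6746 CPM in GSK219 livers, all below both WT livers, with a log2 fold change of -1.04 ± 0.156 (SE; adjusted p = 0.22). Hp had 6060, 4975 and 4518 CPM, again all below WT (-0.96 ± 0.200, SE; adjusted p = 0.391). DESeq2 called Hpx (adjusted p = 5.41e-07) and Hp (0.00713).

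Hmox1 had 23.3, 40.5 and 34.4 CPM in GSK219 livers, below both WT livers (log2 fold change -0.64 ± 0.242, SE; adjusted p = 0.569). Groups of 2 and 3 livers can lie apart by chance, and how often they did so over all genes was not counted. The groups overlapped for the 7 other members. Hamp was the most scattered of them, with 266, 442 and 712 CPM in the 3 GSK219 livers, from below both WT livers to above every other liver, and the highest was the liver with Xist reads. Slc40a1, with 162, 239 and 261 CPM, was lowest in the same GSK219 liver that was lowest in Hamp and Hmox1. Cp (-0.52), Trf (-0.45), Slc40a1 (-0.27) and Tfrc (-0.24) had negative and Hamp (0.56), Ftl1 (0.20) and Fth1 (0.16) positive log2 fold changes, with adjusted p-values from 0.638 to 0.946. Without WT replicate 1 the Cp difference was gone (-0.000508), and without WT replicate 2 it was -0.89. That of Hamp was 0.14 without GSK219 replicate 3 and 0.85 without GSK219 replicate 1. That of Slc40a1 ran from -0.41 to -0.087 with 1 liver left out.

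**Figure D2:**
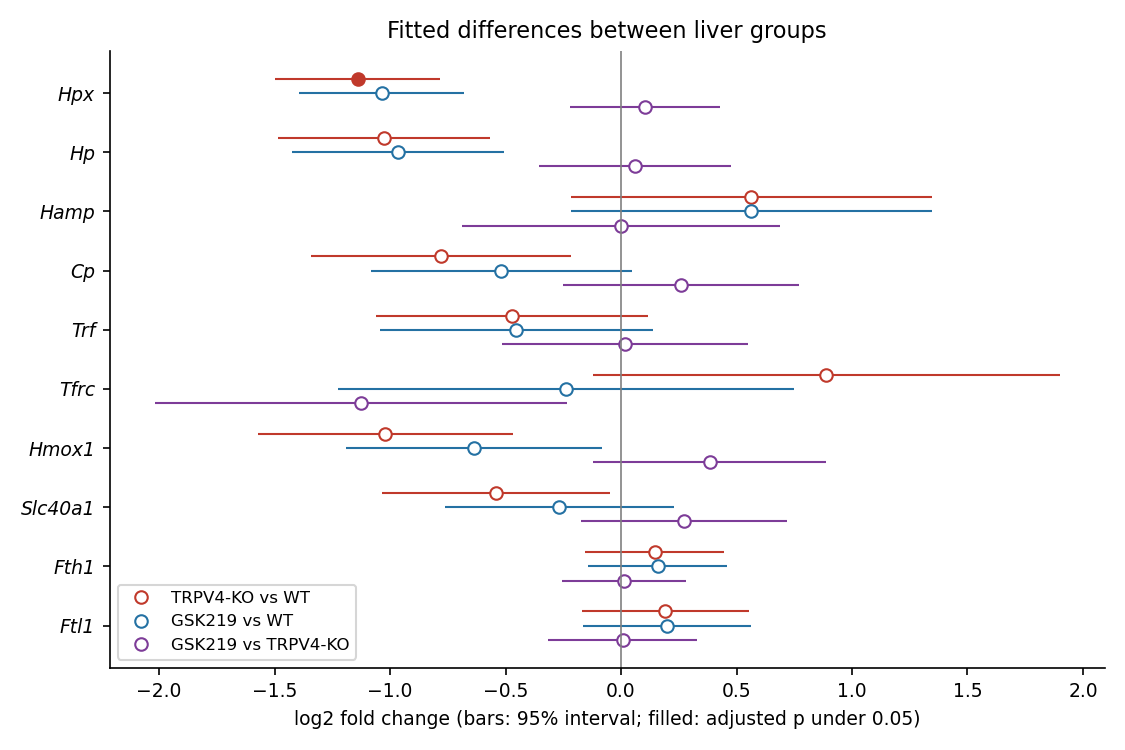
Fitted log2 fold changes of the 10 genes (x axis) in the 3 liver comparisons, with 95% intervals from edgeR's fit of all 8 livers. A filled point is a gene with an adjusted p under 0.05, which is Hpx in TRPV4-KO against WT (-1.14) and no other.

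GSK219 and TRPV4-KO livers were compared directly to see where the drug and the deletion differ. Of all genes 0.106% were called, and 0 of 10 members were, with 925 genes at an unadjusted p under 0.05 in edgeR and no member called by DESeq2. Tfrc had the widest gap. It had 22.2, 9.97 and 24.3 CPM in GSK219 livers, each below the lowest TRPV4-KO liver at 29.2 CPM, with a log2 fold change of -1.13 ± 0.385 (SE; adjusted p = 0.694) and a 95% interval of -2.02 to -0.24. The other 9 members had log2 fold changes between 0.00 and 0.38. For Hpx the 95% interval of the difference was -0.22 to 0.43 and for Hp it was -0.35 to 0.48, so a difference as large as the one from WT was outside both intervals. The interval of Hamp, -0.69 to 0.69, held a difference as large as its fitted difference from WT.

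A wider list of 59 iron and heme genes, without the 10 members, was read beside them. In liver 56 of these were tested, and none passed the test in any of the 3 comparisons, with 16, 8 and 7 genes at an unadjusted p under 0.05 in TRPV4-KO against WT, GSK219 against WT and GSK219 against TRPV4-KO, respectively. Over all 15118 genes tested, 2586, 1242 and 925 had such a p. DESeq2 called 4, 1 and 0 of 57 of them. The median log2 fold change in TRPV4-KO against WT was -0.01, where it was 0.01 over all genes. The 9 genes of mitochondrial iron and iron-sulfur clusters all had positive values with a median of 0.36, and 9 of 10 genes of iron uptake and reduction had negative values with a median of -0.37. The smallest p-values of the list were those of Bmp6, the BMP ligand that signals iron load to hepcidin, with a log2 fold change of 1.18 ± 0.283 (SE), and Aco1, which encodes iron regulatory protein 1, with 0.57 ± 0.138 (SE; both adjusted p = 0.123). Bmp6 had 3.71 and 4.90 CPM in WT, 7.84, 8.36 and 13.0 CPM in TRPV4-KO and 5.13 to 6.42 CPM in GSK219 livers. Alas1, the rate-limiting enzyme of heme synthesis, was chosen after its values were seen. It had 235 and 201 CPM in WT, 1977, 748 and 324 CPM in TRPV4-KO and 328, 315 and 376 CPM in GSK219 livers, so both WT livers were lowest and TRPV4-KO replicate 1 stood far above the rest (2.22 ± 0.681, SE; adjusted p = 0.186). In GSK219 against WT the smallest p-value was that of Steap4, a metalloreductase (-1.35 ± 0.313, SE; adjusted p = 0.417). In GSK219 against TRPV4-KO they were those of Atoh8, a target of BMP signaling (0.72 ± 0.204, SE; adjusted p = 0.53), and Bmp6 (-0.79 ± 0.244, SE; adjusted p = 0.613).

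Since Hp and Hpx are acute-phase proteins, 14 other genes of that response were read with them. All 14 had negative log2 fold changes in TRPV4-KO against WT, with a median of -0.85, and 1 was called, the serum amyloid gene Saa2 (-4.36 ± 0.564, SE; adjusted p = 0.0375). In GSK219 against WT all 14 were again negative with a median of -0.57 and none called, where Saa2 (-4.72 ± 0.572, SE; adjusted p = 0.172) and Saa1 (-3.67 ± 0.511, SE; adjusted p = 0.22) had the smallest p-values. In GSK219 against TRPV4-KO the median was 0.03, and none was called. The 8 neutrophil markers differed along with these values, from 60.7 to 72.8 CPM in WT to 1.20 to 6.77 CPM in TRPV4-KO and 2.45 to 6.04 CPM in GSK219 livers in sum. In TRPV4-KO against WT 3 of the 8 were called, S100a8 (-3.67 ± 0.474, SE), Cxcr2 (-3.33 ± 0.433, SE) and Cd177 (-4.93 ± 0.677, SE), where 0.165% of all genes were called lower. The authors had already named these 3 genes and Saa2 as higher in WT from these same livers, so the calls are not separate evidence. The part of neutrophils in the scavenger values was not tested. Erythroid markers, of which 7 of 8 were listed, overlapped between groups, at 251 to 526 CPM in WT, 376 to 517 CPM in TRPV4-KO and 319 to 405 CPM in GSK219 livers.

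Likeness of pattern over the 8 livers was described by Pearson's correlation of log2 values, which reflects the group means as much as the single livers. The genes most like Hpx were Cpb2 (r = 0.984), Ston2 (0.979) and Zfp703 (0.975). Those most like Hp were Rce1 (r = 0.993), Pcdhgb6 (0.989) and F13a1 (0.968), and those most like Hamp were Rap1a (0.949), Gm12693 (0.947) and Rabgef1 (0.928).

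In PSCs, Yoda1 was compared with DMSO to ask what activation of PIEZO1 does to the stellate cell transcriptome. Hmox1 and the ferritin heavy chain Fth1 rose with Yoda1. All 9 members tested had positive fitted differences, as had 7405 of all 15145 genes tested. That of Hp turned to -0.35, -0.56 and -0.13 without DMSO replicate 3, Yoda1 replicate 1 and Yoda1 replicate 2. In the main fit, which does not pair the libraries of a preparation, 4.66% of all genes were called in either direction and 2.19% were called higher. Of the members 2 of 9 were called, both higher. Hmox1 had values of 8719, 9816 and 6463 with DMSO and 16144, 17329 and 23029 with Yoda1. The treatments did not overlap, and the mean was 2.26 times as high with Yoda1. It had a log2 fold change of 1.18 ± 0.191 (SE; limma, Benjamini-Hochberg adjusted p = 0.0261). Within preparations 1, 2 and 3, Yoda1 over DMSO was 1.85, 1.77 and 3.56 times, so preparation 3 gave the largest ratio. Preparation 3 also had the highest sums of acinar and ductal markers under each treatment. The 3 acinar markers listed of 4 summed to 261, 736 and 1215 in DMSO and 269, 821 and 2270 in Yoda1 libraries of preparations 1, 2 and 3, and the 4 ductal markers to 35752, 35945 and 49147 in DMSO and 28857, 31846 and 60757 in Yoda1 libraries. Of the 7 macrophage markers none was called, and their median log2 fold change was -0.18, with 2 positive and 5 negative values. Their sum went from 2895 to 2493 in preparation 1 and from 3149 to 2583 in preparation 2, but from 3066 to 3828 in preparation 3, where Cd68 was 2.70 times as high with Yoda1. The part of these cell types in the Hmox1 and ferritin values was not tested.

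Fth1 had values of 23861, 24351 and 19870 with DMSO and 37737, 39053 and 41172 with Yoda1. Every Yoda1 library was above every DMSO library, by 1.58, 1.60 and 2.07 times within the 3 preparations. Fitted, this was a log2 fold change of 0.80 ± 0.0916 (SE; adjusted p = 0.0123). Without DMSO replicate 2 the adjusted p was 0.0635 for Fth1 and 0.0869 for Hmox1, without Yoda1 replicate 2 it was 0.0758 and 0.106, and Hmox1 was also lost without DMSO replicate 1 (0.0837) or Yoda1 replicate 1 (0.0551). These fits did not pair the libraries of a preparation either. The DMSO libraries of preparations 1 and 2 were the shallowest of the 6, with 27312894 and 30247226 reads, and the part of depth in these values was not tested.

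The ferritin light chain Ftl1 had values of 26648, 28288 and 27587 with DMSO and 37987, 38533 and 55350 with Yoda1. The Yoda1 libraries were all higher, and that of preparation 3 stood above the others. The fitted log2 fold change was 0.65 ± 0.148 (SE; adjusted p = 0.0616). Ceruloplasmin had values of 878, 1111 and 1843 with DMSO and 2046, 2224 and 3188 with Yoda1, higher by 2.33, 2.00 and 1.73 times within preparations (log2 fold change 1.00 ± 0.293, SE; adjusted p = 0.11). The preparations differed in Cp before treatment, and preparation 3 had the highest level under each treatment. With the preparation as a replicate block, 2760 genes (18.2%) and 4 of the 9 members were called, as Cp (adjusted p = 0.00242) and Ftl1 (0.0214) joined Fth1 (0.00477) and Hmox1 (0.0233).

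**Figure D3:**
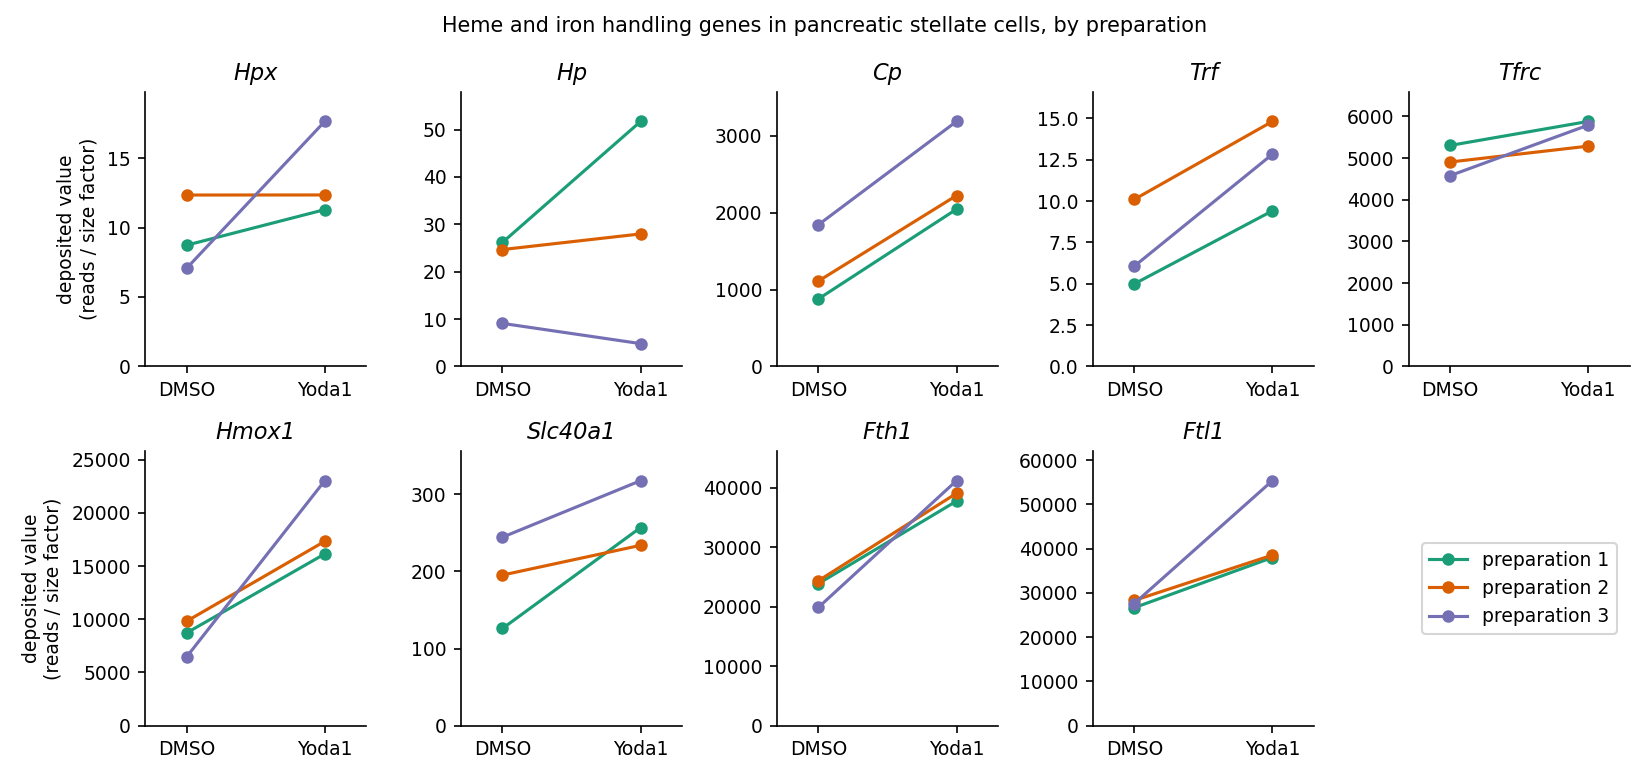
Deposited values (reads divided by a size factor; y axis, from 0) of the 9 listed genes in PSCs, with a line joining the DMSO and Yoda1 libraries of each of the 3 preparations. The Yoda1 value is the higher in all 3 preparations for 8 of the 9 genes, though for Hpx by only 1.0004 times in preparation 2, and for Hp it is the lower in preparation 3. The share of all genes that are higher in all 3 preparations was not counted.

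Tfrc and Slc40a1, for entry and exit of iron, were not called. Tfrc had 5302, 4904 and 4578 with DMSO and 5878, 5285 and 5790 with Yoda1, where the treatments overlapped over all libraries and Yoda1 was the higher within each preparation (log2 fold change 0.20 ± 0.0749, SE; adjusted p = 0.184). Slc40a1 had 126, 195 and 244 with DMSO and 257, 234 and 318 with Yoda1, again overlapping over all libraries and higher within each preparation (0.55 ± 0.256, SE; adjusted p = 0.263). The 3 plasma proteins were near the low end of what was counted. Hpx had 7 to 11 reads with DMSO and 12 to 22 with Yoda1, Trf had 4 to 9 and 10 to 18, and Hp had 9 to 22 and 6 to 55, and none of these was called, with adjusted p-values from 0.265 to 0.953. The pseudogene Fth-ps2, which can take reads of Fth1, had 4 to 10 reads per library. Fth1 over Ftl1 per kilobase averaged 1.28 ± 0.144 in the DMSO libraries and 1.42 ± 0.232 in the Yoda1 libraries (SD, n = 3 each). The ranges overlapped, and the ratio was the higher with Yoda1 within each preparation (1.39 and 1.54, 1.33 and 1.57, 1.11 and 1.15), which was not tested.

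Of the wider iron and heme list, 53 genes were tested in PSCs and 5 were called, all higher, where 2.19% of all genes were called higher and 4.66% either way, while the median log2 fold change of the list was 0.00 and that of all genes was -0.01. Of the 5, 3 belong to heme breakdown and transport. They were Slc48a1, which carries heme out of endosomes (0.89 ± 0.133, SE; adjusted p = 0.0206), Blvrb, which encodes biliverdin reductase B (1.52 ± 0.271, SE; adjusted p = 0.0327), and Flvcr2, a membrane transporter of the same family as the heme exporter Flvcr1 (1.07 ± 0.208, SE; adjusted p = 0.0401). Alas1 was called with 0.79 ± 0.106 (SE; adjusted p = 0.0158), and Heph, a ferroxidase related to ceruloplasmin, with 1.32 ± 0.256 (SE; adjusted p = 0.041). Alas1 had values of 1424, 1369 and 1234 with DMSO and 2098, 2211 and 2679 with Yoda1, with no overlap. Blvrb had 525, 534 and 433 with DMSO and 1126, 1149 and 2245 with Yoda1. As for Hmox1, preparation 3 had the lowest DMSO value and the highest Yoda1 value of both genes. Blvra, the other biliverdin reductase, had 634.9 to 664 with DMSO and 585 to 611 with Yoda1. No gene of iron uptake and reduction (10 tested), hepcidin control (9) or mitochondrial iron and iron-sulfur clusters (9) was called without the replicate block. With the replicate block 19 of the 53 genes were called, 15 higher and 4 lower, against 18.2% of all genes, and they included 5 genes of iron uptake and reduction, 3 of hepcidin control and 2 of mitochondrial iron and iron-sulfur clusters.

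A list of 9 genes known as targets of NRF2, which is also an activator of Hmox1 and the ferritin genes when BACH1 leaves their promoters, was read beside them. Of the 9, 6 were called in PSCs, all higher, against 2.19% of all genes, and the median log2 fold change was 0.68. The 3 with the smallest p-values were G6pdx (0.68 ± 0.0605, SE; adjusted p = 0.00754), Txnrd1 (1.00 ± 0.0948, SE; adjusted p = 0.00806) and Gclm (0.92 ± 0.110, SE; adjusted p = 0.0129). In liver none of 8 tested was called in any comparison, and the medians were -0.00442, 0.07 and -0.05 in TRPV4-KO against WT, GSK219 against WT and GSK219 against TRPV4-KO. The smallest unadjusted p of the list in liver was that of Gclc in GSK219 against WT, at 0.78 ± 0.124 (SE; adjusted p = 0.257). Of the 6 stellate cell and fibroblast markers tested in PSCs, 5 were called lower with Yoda1, against 2.47% of all genes. Col1a1 had the smallest p (-0.85 ± 0.0991, SE; adjusted p = 0.0123) and Acta2 the largest difference (-1.70 ± 0.225, SE; adjusted p = 0.0158). Of the 3 endothelial markers 1 was called, Kdr, which was lower (-1.07 ± 0.183, SE; adjusted p = 0.03). The 2 others had positive log2 fold changes, and the median of the 3 was 0.53. The part of these shifts in the values of the heme and iron genes was not tested. Piezo1, the target of Yoda1, had values of 14295 to 16698 with DMSO and 13819 to 16018 with Yoda1 (log2 fold change -0.08 ± 0.0877, SE; adjusted p = 0.62). The genes most like Hmox1 over the 6 PSC libraries were Fam13a (r = 0.995), Fabp3 (0.994) and Pir (0.994).

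**Figure D4:**
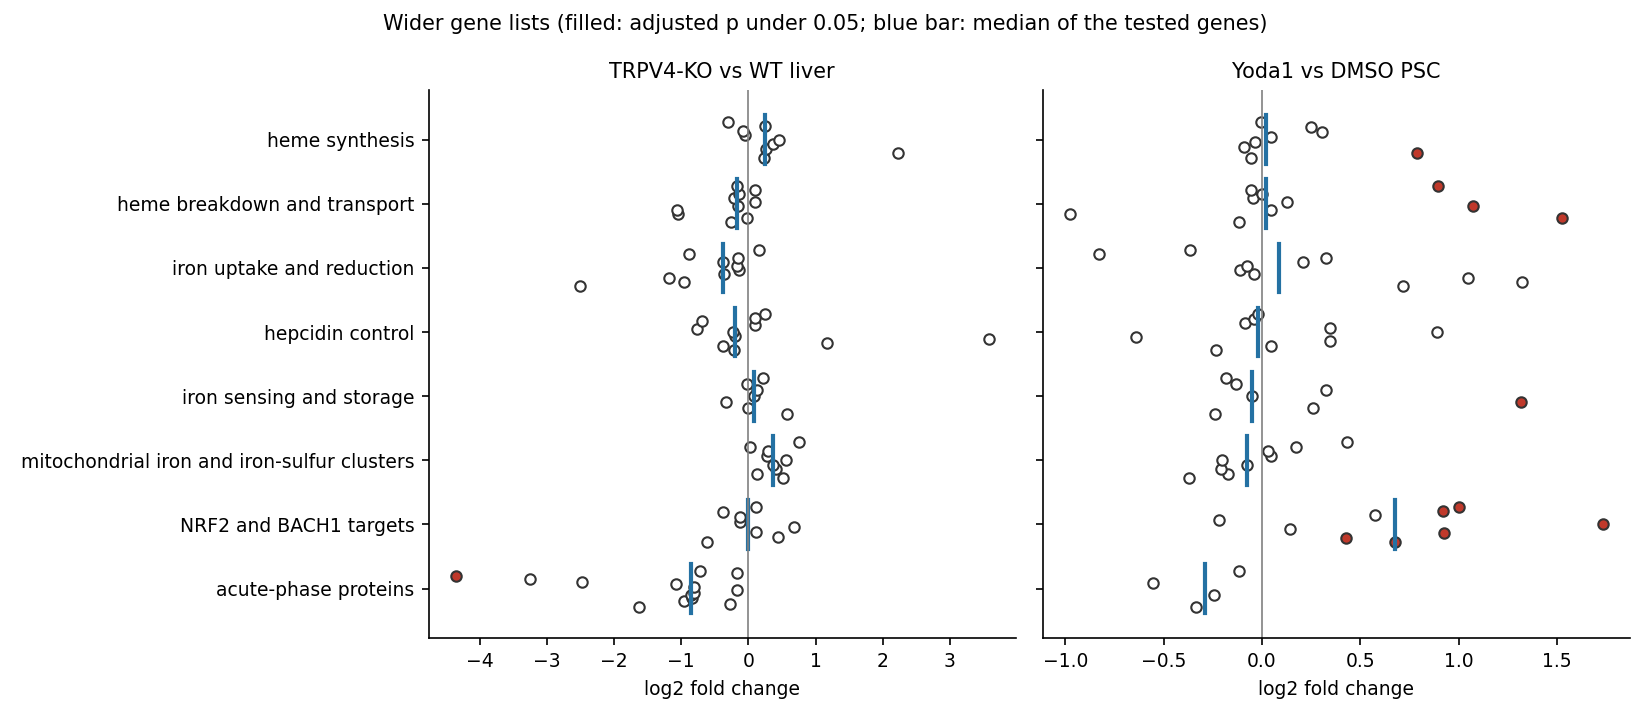
Log2 fold changes (x axis) of every tested gene of 6 iron and heme lists, the NRF2 and BACH1 targets and the acute-phase proteins, in TRPV4-KO against WT livers (left) and Yoda1 against DMSO PSCs (right), with a blue bar at each median. Filled points have an adjusted p under 0.05, in PSCs by the fit without the replicate block. In liver 1 acute-phase gene, Saa2, is filled and lies below 0, and in PSCs 5 iron and heme genes and 6 NRF2 and BACH1 targets are filled and lie above 0.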

How the data were processed

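RNA-Seq was analyzed for 8 livers (2 WT, 3 TRPV4-KO, 3 GSK219) and 6 PSC libraries (3 DMSO, 3 Yoda1), grouped by their labels. The authors deposited raw counts per gene for the livers, with GRCm38 coordinates, and for the PSCs a signal per gene. In that deposited signal each library's reads were scaled by a single size factor, since 100% of 98886 values came out whole once divided by the value of 1 read (tolerance 0.01). The submitters' processing notes name HISAT2 2.0.5 and Trim Galore, and the counting tool is not given in the sources used here. A further 7 count columns matched no sample and were not used. The authors' log2 fold changes, standard errors, test scores, p-values and adjusted p-values of Yoda1 over DMSO were not used.

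Liver counts were fitted with edgeR 4.0.16 in R 4.3.3 (TMM, filterByExpr with a minimum count of 10, robust quasi-likelihood fit of all 8 livers). PSC values were fitted with limma 3.58.1 (trend, robust) on log2(value + 1), for genes with at least 10 in at least 3 libraries. Log2 fold changes in PSCs are on that scale. A gene was called at a Benjamini-Hochberg adjusted p under 0.05 over all genes tested. The steps were tested on simulated data. Alternatives were DESeq2 1.42.0, RLE size factors, no filter, other pseudocounts, edgeR on recovered PSC reads, a fold limit, a sex term, only the 2 groups compared, a replicate block and each library left out. A fit of only the livers with Y-linked reads was chosen after seeing the data.

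The members and lists were chosen with earlier results of these data known. All members were named, and of each list at most 3 called genes per direction with the smallest p, or at most 2 where none was called. The rule sets upper limits, and not every gene it allows is reported here. Cd163, Blvra, Piezo1 and Alas1 in liver, and further list genes beyond this number, were named after their values were seen. PSC replicate numbers mark a cell preparation that received both treatments. Deviations from the treatment means correlated at 0.43, 0.26 and 0.53 within preparations. Intervals cover the spread between these libraries only.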

Additional observations from a re-analysis of the deposited data

How the results depend on the processing

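Directions of the 10 genes held under most alternatives, and calls moved more. In TRPV4-KO against WT (44 genes, 1 member and 0 wider-list genes called), 198 genes and 3 members were called with no filter, 782 genes, 3 members and 4 wider-list genes by DESeq2, 535 genes, 2 members and 1 wider-list gene with sex reads as a term, 20 genes and 0 members with only the 2 groups compared, and 418 genes in livers with Y-linked reads, a fit that holds 1 WT liver, assumed to vary like the other groups. Leaving out 1 liver gave 3 to 1291 genes, 0 to 3 members and 0 to 4 wider-list genes, with the most without TRPV4-KO replicate 3 and no member without either WT liver, which leaves 1 under the same assumption, or without TRPV4-KO replicate 1 or 2. Trf ranged from -0.88 to 0.062 and turned without WT replicate 1. In GSK219 against WT (0, 0 and 0), no filter gave 9 genes and 1 member, DESeq2 108 genes, 2 members and 1 wider-list gene, the sex term 4 genes, only the 2 groups compared 2 genes and livers with Y-linked reads 6 genes. Leaving out 1 liver gave 0 to 2 genes, Trf -0.84 to 0.10 and Tfrc -0.63 to 0.33. In GSK219 against TRPV4-KO (16, 0 and 0), genes called were 44 with no filter, 45 with the sex term, 120 by DESeq2, 283 in livers with Y-linked reads and 8 to 141 with 1 liver left out, most without TRPV4-KO replicate 3. Differences near 0 changed sign there. Hamp was -0.060 with the sex term and -0.41 in livers with Y-linked reads, where Fth1 was -0.032 and Ftl1 -0.036. With 1 liver left out Hamp ranged from -0.42 to 0.29, Trf from -0.092 to 0.13, Ftl1 from -0.069 to 0.12, Fth1 from -0.036 to 0.074 and Hp from -0.067 to 0.15.

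In PSCs (705, 2 and 5), requiring a log2 fold change over 1 gave 230 genes, 1 member and 3 wider-list genes. Leaving out 1 library gave 37 to 1054 genes, 0 to 3 members and 0 to 6 wider-list genes, the fewest without DMSO replicate 2 or Yoda1 replicate 2, and Hp ranged from -0.56 to 1.03. With the preparation as a replicate block, 2760 genes, 4 members and 19 wider-list genes were called by limma and 2735, 4 and 19 by edgeR on recovered reads.

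Liver replicate numbers are only numbers. With the liver number as a replicate block, 531 genes and 3 members were called in TRPV4-KO against WT, 9 genes in GSK219 against WT and 20 genes in GSK219 against TRPV4-KO, where Hamp was -0.10. Of 7 same-numbered pairs of livers, the 2 with unlike sex reads had negative correlations of their deviations (-0.46 for WT and TRPV4-KO replicate 1, -0.54 for WT and GSK219 replicate 1), and the 5 with like sex reads had positive ones, from 0.16 to 0.61. The deviations of the 2 WT livers from their mean are mirror images, so the pairs that hold a WT liver are not independent. The cause of these correlations and of the shifts in calls was not tested. With 2 WT livers shared by both comparisons, 1 liver can decide a call. The biological coefficient of variation was 28.3%, and small differences may have been missed.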
